A study of Mus musculus with 6 samples.

Results

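The genes described here are 35 markers of microglia and macrophages, taken by symbol from a count table of 55450 mouse genes. All 35 symbols matched 1 gene each, and all 35 passed the filter on low counts, which left 19549 genes for testing. They were read in 4 role groups: 11 genes of homeostatic (resting) microglia, 10 genes that microglia share with other macrophages, 5 genes of border macrophages and 9 genes that are raised in activated microglia. The libraries were poly(A) RNA-seq of brain cells enriched for CD31, the adhesion molecule encoded by Pecam1, from mice at postnatal day 7 on a mixed FVB/N and C57BL/6 background. All mice carried Cdh5(PAC)-CreERT2, a Cre recombinase that tamoxifen activates and that is driven by the promoter of Cdh5, the gene of the endothelial cadherin. Tamoxifen was given to all of them, 100 µg at a time, on days 1 and 2 after birth. The control group (3 libraries) had 1 floxed allele of Rbpj, the DNA-binding factor of Notch signaling, and the mutant group (3 libraries) had both alleles floxed. Male and female animals were used without distinction, and RNA of many animals was pooled for each group. Whether each of the 3 libraries had a pool of its own is not said in the labels, so the p-values rest on a spread between libraries that may be technical.

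Microglia are the resident macrophages of the brain parenchyma. They depend on signaling through the receptor Csf1r, and in the resting state they express a set of surface receptors such as P2ry12, P2ry13, Gpr34, Cx3cr1 and Tmem119. Border macrophages sit along vessels, in the meninges and in the choroid plexus, and are known for the scavenger receptors Mrc1 and Cd163. In development, injury and disease, microglia take on activated states in which the resting genes fall and genes such as Spp1, Gpnmb, Lgals3, Clec7a, Cst7 and Apoe rise. CD31 is carried by endothelial cells and also by some myeloid cells, and per the labels' protocols the gradient layer used for the enrichment consisted mainly of myeloid cells together with the endothelium.

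In the mutant libraries 6 of 11 homeostatic and 7 of 10 shared genes were lower, none of the 5 border macrophage genes was called in either direction, and 2 of 9 activation genes, Spp1 and Lgals3, were higher. A gene is called when its adjusted p by the edgeR quasi-likelihood test, corrected over all 19549 genes, was under 0.05. By this rule 14 members were lower and 2 were higher, or 40.0% and 5.71% of the members. Over all tested genes 6.83% were called lower, 7.56% higher and 14.4% in either direction. The median log2 fold change (mutant over control) of the members was -0.21, against -0.01 for all genes. The groups did not overlap, in that each mutant library lay below or each lay above all control libraries, for 16 members that were lower and 3 that were higher. The same held for 34.1% of all genes, 17.3% on the lower side and 16.8% on the higher side. The summed expression of all members was 2913 to 2963 CPM (counts relative to the scaled library total) in the control libraries. In the mutant libraries it was 2578 to 2679 CPM. The homeostatic and shared genes together summed to 2159 to 2186 CPM in the control and 1674 to 1791 CPM in the mutant libraries. The activation genes summed to 652.3 to 719.5 CPM in the control and 804.2 to 839.4 CPM in the mutant libraries. Within this sum Spp1 alone had 48.6 to 55.1 CPM in the control and 185.4 to 224.3 CPM in the mutant libraries. Only Lgals3 was called higher beside it, so the sum does not show a rise of the group as a whole. In whole-library RNA, fewer cells of a type and less RNA per cell cannot be told apart.

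**Figure D1:**
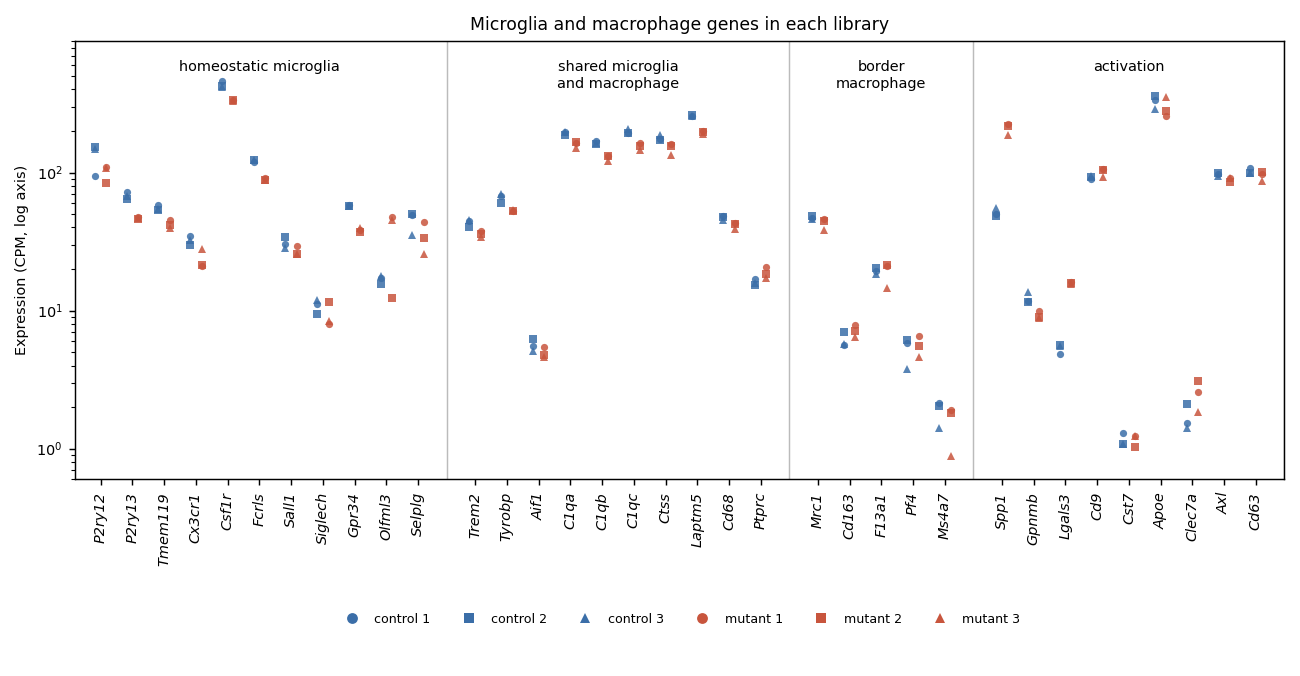
Expression of the 35 members in each library, in CPM on a log axis, with control libraries in blue and mutant libraries in red and the marker shape giving the library number. Csf1r, Fcrls, Gpr34, Laptm5 and the C1q genes lie lower in all mutant libraries, Spp1 and Lgals3 lie higher, and Olfml3 splits the mutant libraries.

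Total counts ran from 75744913 to 82092461 per library, where about 4 counts stand for 1 read pair. Mutant library 3 stood apart from mutant libraries 1 and 2 on the second principal component, at -55.6 against 31.2 and 26.2. It was the lowest of the mutant libraries for 23 of the 35 members, and for 34.7% of all tested genes. Without it, 11 members were called lower and 3 higher, and 11.9% of all genes were called. Rbpj itself had 53.8 to 54.3 CPM in the control and 45.2 to 47.9 CPM in the mutant libraries (log2 fold change -0.21 ± 0.042 SE, adjusted p = 0.0129, 0.0287 to 0.0571 with 1 library left out). This gene-level count includes exons that may lie outside the floxed region, and it checks the deletion only weakly. Endothelial markers were high in every library: the sum of 10 such genes was 10970 to 11240 CPM in the control and 11370 to 12210 CPM in the mutant libraries.

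PU.1, encoded by Spi1, is the transcription factor on which myeloid cells depend, and its binding site has the core GGAA. The promoter table of RefSeq (GRCm38.p6) had an entry for 29 of the 35 members. In the 250 bases before the start site, 3 of these 29 genes (10.3%) held the letters GAGGAAGT on either strand, against 2.79% of the 27025 genes in the table. The 3 genes stood in different role groups, and their windows are shown because the expression of 1 fell, that of 1 rose and that of 1 was not called. Each window of 60 bases is read 5′ to 3′ on the gene's own strand, and the capitals mark the match (in C1qc and Pf4 on the other strand, so read as its reverse complement).
C1qc (chr4:136893076-136893135, minus strand): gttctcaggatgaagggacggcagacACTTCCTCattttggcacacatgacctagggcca
Spp1 (chr5:104434972-104435031, plus strand): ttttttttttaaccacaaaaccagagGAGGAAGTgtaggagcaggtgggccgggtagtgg
Pf4 (chr5:90772375-90772434, plus strand): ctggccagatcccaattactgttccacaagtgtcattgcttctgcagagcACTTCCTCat
Counted from the start site of the RefSeq table, the match began 195 bases before it in C1qc, 113 bases before it in Spp1 and 10 bases before it in Pf4. GENCODE places the start of C1qc further upstream, at 136893065, so the match lies nearer to that start. The letters TGGGAA, the core of the RBPJ motif, were on either strand of the same 250 bases in 8 of the 29 members (27.6%) and in 24.1% of all genes in the table. The 8 were Cd63, Cd68, Cd9, Cst7, Cx3cr1, F13a1, Olfml3 and Siglech, of which Cx3cr1 was the called one. A match is a description of letters and not a shown binding site.

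Among the homeostatic genes 6 of 11 were lower, none was higher and the median log2 fold change was -0.39. The lower ones were Gpr34, Fcrls, P2ry13, Csf1r, Tmem119 and Cx3cr1. Gpr34, a receptor for lysophosphatidylserine on chromosome X from 13632089 to 13640858 (GRCm38), had 58.0, 57.7 and 57.0 CPM in the control and 38.1, 37.3 and 39.4 CPM in the mutant libraries. Within each group the values lay close together, and the mutant level was lower by 33.5% (log2 fold change -0.59 ± 0.042 SE, adjusted p = 0.000118). P2ry13, a receptor for ADP on chromosome 3 from 59207892 to 59210882, had 72.1, 64.6 and 67.8 CPM in the control and 47.6, 46.4 and 47.1 CPM in the mutant libraries. It fell by 0.53 ± 0.050 on the log2 scale (adjusted p = 0.000408). Fcrls, an Fc receptor-like gene used to tell microglia from blood-derived macrophages, had 119.9, 122.5 and 122.7 CPM in the control and 91.7, 88.1 and 88.3 CPM in the mutant libraries. Its log2 fold change was -0.45 ± 0.035 (adjusted p = 0.000174), again with a wide gap between the groups.

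Csf1r, the receptor whose signal keeps microglia alive, had the highest mean CPM of all members in both groups. It had 460.4, 425.2 and 418.5 CPM in the control and 332.9, 333.6 and 328.7 CPM in the mutant libraries, a fall of 23.7% (log2 fold change -0.39 ± 0.042, adjusted p = 0.000784). Tmem119, a membrane protein used as a microglial marker, had 57.8, 53.4 and 54.3 CPM in the control and 45.2, 41.7 and 39.4 CPM in the mutant libraries. Its change had the same size (-0.39 ± 0.063, adjusted p = 0.00555). Cx3cr1, the receptor for fractalkine, had 34.8, 29.6 and 32.3 CPM in the control and 20.9, 21.4 and 27.8 CPM in the mutant libraries. Mutant library 3 lay nearest to the controls, and the log2 fold change was -0.46 ± 0.122 (adjusted p = 0.0471). Leaving out control library 1, 2 or 3 gave Cx3cr1 an adjusted p of 0.153, 0.0754 or 0.126, and leaving out mutant library 1 or 2 gave 0.127 or 0.148. The exons of Csf1r and Cx3cr1, and of the members F13a1 and Cd9 below, overlap genes on the opposite strand. It is not known here whether reads were assigned by strand.

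The other 5 homeostatic genes were not called. P2ry12, the ADP receptor through which microglial processes find injury, ran from 95.04 to 153.5 CPM in the control and from 83.8 to 108.9 CPM in the mutant libraries, so the groups overlapped. Its highest control library was 1.61 times its lowest, against 1.12 times for its neighbor P2ry13. The estimate for P2ry12 was -0.40 ± 0.229 with a 95% interval from -0.99 to 0.20 (adjusted p = 0.364), and this interval holds the value of P2ry13. P2ry12 lies on chromosome 3 from 59216272 to 59262871, and its exons overlap those of Med12l on the opposite strand, which had 2.12 to 4.06 CPM. Sall1, a transcription factor of microglial identity, had a log2 fold change of -0.20 ± 0.086, and the lectin gene Siglech had -0.21 ± 0.165. Selplg, the ligand of P-selectin, ran from 35.2 to 49.9 CPM in the control and from 25.7 to 43.5 CPM in the mutant libraries (-0.38 ± 0.243, adjusted p = 0.405).

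Olfml3, a secreted protein of the olfactomedin family, was the one homeostatic gene with an estimate above 0, and is given by library because of its spread, seen in the data. It had 17.3, 15.6 and 17.7 CPM in the control and 47.7, 12.4 and 45.3 CPM in the mutant libraries. Mutant libraries 1 and 3 were thus far above the controls while mutant library 2 lay below every control, a spread of 3.86 times within the group. The log2 fold change was 1.06 ± 0.552 with an interval from -0.41 to 2.52 (adjusted p = 0.324). Without mutant library 2 the estimate was 1.47 with an adjusted p = 0.000187.

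Genes shared by microglia and other macrophages were lower in 7 of 10 cases, with a median of -0.27 and none higher. Laptm5, a lysosomal membrane protein of blood and immune cells on chromosome 4 from 130913125 to 130936141, had 255.3, 262.3 and 257.4 CPM in the control and 200.7, 196.4 and 189.1 CPM in the mutant libraries. It fell by 24.4% (log2 fold change -0.40 ± 0.035, adjusted p = 0.00028), with no overlap between the groups. The 3 chains of C1q, the recognition protein of the classical complement pathway, are encoded side by side on chromosome 4 between 136880129 and 136898803. C1qb had 168.2, 161.6 and 163.6 CPM in the control and 131.3, 132.6 and 121.1 CPM in the mutant libraries (log2 fold change -0.36 ± 0.044 SE, adjusted p = 0.00161). C1qc had 192.5, 191.7 and 205.9 CPM in the control and 162.4, 156.4 and 145.2 CPM in the mutant libraries (-0.35 ± 0.052, adjusted p = 0.00384). C1qa had 196.8, 186.2 and 196.0 CPM in the control and 163.3, 165.9 and 150.6 CPM in the mutant libraries (-0.27 ± 0.047, adjusted p = 0.00768). The control libraries of each C1q gene lay above its mutant libraries, and in all 3 genes mutant library 3 was the lowest.

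Tyrobp, the adaptor that carries the signal of Trem2 and other myeloid receptors, had 68.1, 60.2 and 70.0 CPM in the control and 52.6, 52.8 and 53.7 CPM in the mutant libraries. Its log2 fold change was -0.32 ± 0.061 (adjusted p = 0.0119, and 0.0554 without control library 1). Trem2, a lipid-sensing receptor of microglia, had 44.6, 40.1 and 45.1 CPM in the control and 38.0, 35.7 and 34.2 CPM in the mutant libraries. A small gap separated the groups, with -0.27 ± 0.066 and an adjusted p of 0.0351. Leaving out control library 1 or 3 gave Trem2 an adjusted p of 0.125 or 0.107, and leaving out mutant library 2 or 3 gave 0.107 or 0.103. Ctss, the lysosomal protease cathepsin S, was just inside the threshold, with 173.2 to 187.2 CPM in the control and 134.6 to 159.7 CPM in the mutant libraries (-0.25 ± 0.068, adjusted p = 0.049). It was called under 3 of 13 alternatives. Leaving out control library 1, 2 or 3 gave it an adjusted p of 0.119, 0.0976 or 0.144, and leaving out mutant library 2 or 3 gave 0.0858 or 0.0506. Without control library 1 the number of lower genes in this role group was 4, and over all members it was 9.

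The other 3 shared genes were not called. Cd68, a lysosomal glycoprotein of phagocytes, ran from 45.2 to 48.1 CPM in the control and from 39.0 to 43.3 CPM in the mutant libraries, with no overlap (-0.17 ± 0.056, adjusted p = 0.096). Aif1, which encodes the calcium-binding protein Iba1, was low, at 5.60 ± 0.562 CPM in the control and 4.94 ± 0.428 CPM in the mutant libraries (SD, n = 3). Ptprc, which encodes CD45 and is found on leukocytes of all kinds, lay on the other side: it ran from 15.2 to 17.0 CPM in the control and from 17.3 to 20.5 CPM in the mutant libraries. The groups of Ptprc did not overlap, yet the log2 fold change of 0.23 ± 0.086 was not called (adjusted p = 0.138).

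**Figure D2:**
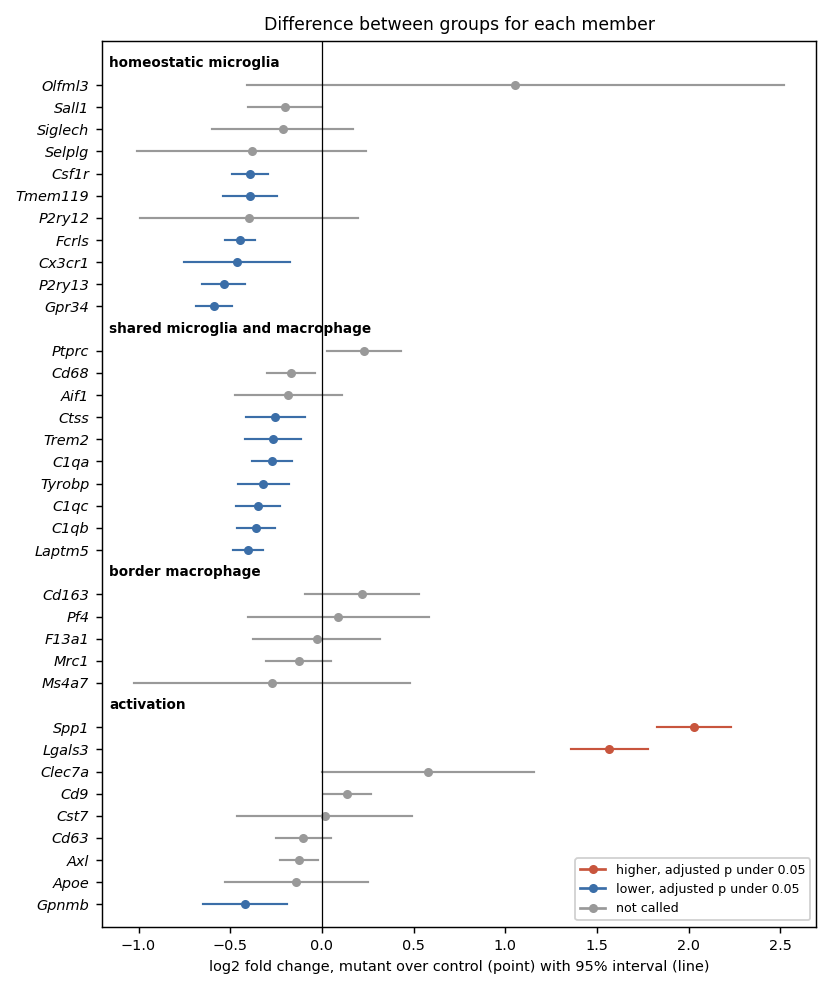
Log2 fold change of each member, mutant over control, as a point with its 95% interval as a line, by role group and ordered by size. Called members are colored (red higher, blue lower) and members not called are gray. The intervals of Spp1 and Lgals3 start at 1.83 and 1.36, those of the called lower members end at or below -0.09, and those of the 5 border macrophage genes span 0.

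None of the 5 border macrophage genes was called by edgeR, none had an unadjusted p under 0.05, and DESeq2 and limma-voom also called none. The median log2 fold change was -0.03, against -0.39 for the homeostatic and -0.27 for the shared genes, and this difference between role groups was not tested. Mrc1, the mannose receptor, is the best measured of the 5. It had 46.8, 48.2 and 45.7 CPM in the control and 46.4, 44.5 and 38.1 CPM in the mutant libraries. Here mutant library 3 lay furthest below the controls, and mutant library 2 lay just below them. The estimate for Mrc1 was -0.13 with a 95% interval from -0.30 to 0.05 (adjusted p = 0.353). This interval includes falls as large as that of C1qa. F13a1, the A chain of coagulation factor XIII, had 19.4, 20.4 and 18.3 CPM in the control and 20.9, 21.5 and 14.6 CPM in the mutant libraries (-0.03, interval -0.38 to 0.32, adjusted p = 0.932).

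The remaining border genes had fewer CPM. Cd163, the hemoglobin scavenger receptor, had 5.61, 7.03 and 5.69 CPM in the control and 7.82, 7.10 and 6.399 CPM in the mutant libraries (0.22, interval -0.09 to 0.53, adjusted p = 0.356). Pf4, a chemokine of platelets and of border macrophages, had 5.83, 6.15 and 3.79 CPM in the control and 6.54, 5.57 and 4.64 CPM in the mutant libraries (0.09, interval -0.40 to 0.58, adjusted p = 0.847). Ms4a7, a membrane-spanning gene of these cells, had 2.14, 2.05 and 1.40 CPM in the control and 1.92, 1.82 and 0.891 CPM in the mutant libraries (-0.27, interval -1.02 to 0.48, adjusted p = 0.667). It rested on about 34.0 read pairs per library. In all 5 genes mutant library 3 was the lowest of the mutant libraries, and in all but Cd163 control library 3 was the lowest control. The fibroblast markers showed the same order: mutant library 3 was the lowest mutant library for 7 of 7, and their sum was 542.0 CPM there against 681.4 and 721.1 CPM in the other mutant and 826.5 to 936.5 CPM in the control libraries. The part of such cells in these values was not tested.

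Activation genes moved apart from each other: 2 of 9 were higher, 1 was lower and 6 were not called, with a median of 0.01. Spp1, which encodes the secreted phosphoprotein osteopontin, lies on chromosome 5 from 104435118 to 104441050 (GRCm38), and its promoter window is shown above. It had 50.2, 48.6 and 55.1 CPM in the control and 224.3, 218.6 and 185.4 CPM in the mutant libraries, a rise of 4.08-fold (log2 fold change 2.03 ± 0.085 SE, adjusted p = 2.21e-05). The lowest mutant library was more than 3 times the highest control. Lgals3, which encodes the carbohydrate-binding protein galectin-3, lies on chromosome 14 from 47367751 to 47386160. It had 4.86, 5.63 and 5.58 CPM in the control and 16.1, 15.8 and 15.7 CPM in the mutant libraries, a rise of 2.96-fold (1.57 ± 0.090, adjusted p = 4.77e-05). By size of the rise, Spp1 ranked 71 and Lgals3 ranked 108 among the 1477 genes called higher. Both genes are also expressed by cells other than microglia. An exon of Spp1 overlaps a further annotated gene on its strand.

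Gpnmb, a membrane glycoprotein of activated microglia and macrophages, went the other way. It had 11.8, 11.6 and 13.7 CPM in the control and 9.91, 8.93 and 8.86 CPM in the mutant libraries (log2 fold change -0.42 ± 0.098, adjusted p = 0.0286). The groups did not overlap, but the call was lost without control library 1, 2 or 3 (adjusted p 0.0649, 0.0511 and 0.0812) and without mutant library 2 or 3 (0.0964 and 0.0817). Clec7a, the beta-glucan receptor Dectin-1, had 1.53, 2.09 and 1.42 CPM in the control and 2.57, 3.10 and 1.85 CPM in the mutant libraries. These rest on about 41.5 read pairs per library, and its estimate of 0.58 had an interval from -0.000229 to 1.16 (adjusted p = 0.186). Cst7, an inhibitor of lysosomal proteases that is a hallmark of disease-associated microglia, was low in every library, at 1.09 to 1.29 CPM in the control and 1.03 to 1.24 CPM in the mutant libraries. Its estimate was 0.01 with an interval from -0.46 to 0.49 (adjusted p = 0.977), on about 23.0 read pairs per library.

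The other activation genes are expressed well beyond microglia. Cd9, a tetraspanin, had 89.5, 92.4 and 93.7 CPM in the control and 105.7, 104.5 and 93.2 CPM in the mutant libraries. Mutant library 3 lay among the controls, and the estimate of 0.14 ± 0.054 had an adjusted p of 0.151, or 0.0211 (estimate 0.20) without mutant library 3. Axl, a receptor for Gas6 in the clearance of dying cells, had 97.1, 99.7 and 94.8 CPM in the control and 91.5, 84.8 and 91.1 CPM in the mutant libraries (-0.12 ± 0.044, adjusted p = 0.11). Cd63, a tetraspanin of late endosomes, had an estimate of -0.10 ± 0.064. Apoe, the lipid carrier made by astrocytes as well as microglia, ran from 287.4 to 359.0 CPM in the control and from 255.4 to 354.9 CPM in the mutant libraries, with mutant library 3 the highest mutant library (-0.14 ± 0.153, adjusted p = 0.648).

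**Figure D3:**
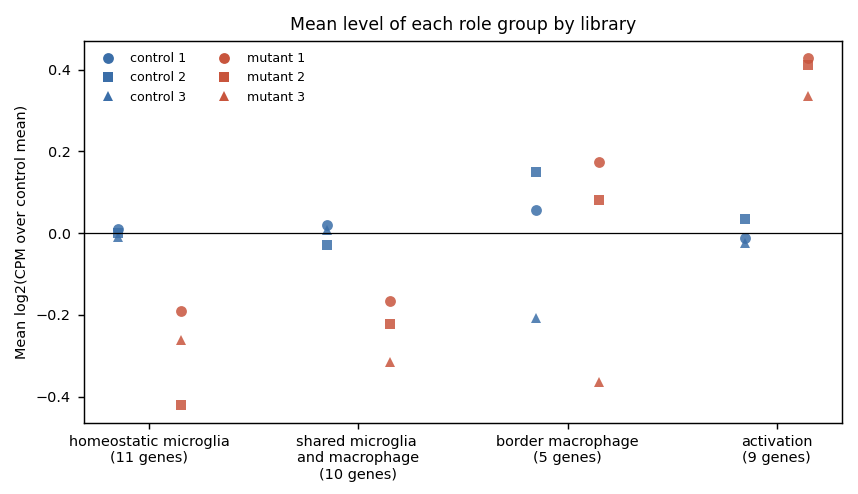
Mean log2 ratio of CPM to the control mean over the genes of each role group, with 1 point per library (control blue, mutant red, shape for the library number). Mutant libraries lie between -0.42 and -0.19 for homeostatic genes and between -0.32 and -0.17 for shared genes. They lie from -0.36 to 0.18 for border genes and from 0.33 to 0.43 for activation genes. The activation values are set by Spp1 and Lgals3, the only members of that group called higher. The homeostatic values include Olfml3, which was far above the controls in mutant libraries 1 and 3 and below them in mutant library 2.

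Averaged over a role group, the mutant libraries had mean log2 ratios to the control mean of -0.19, -0.42 and -0.26 for homeostatic genes and of -0.17, -0.22 and -0.32 for shared genes, while the control libraries lay between -0.03 and 0.02. The homeostatic means include Olfml3, which had 47.7, 12.4 and 45.3 CPM in mutant libraries 1, 2 and 3. This gene thus raised the means of mutant libraries 1 and 3 but not that of mutant library 2. For border genes the mean log2 ratios were 0.18, 0.08 and -0.36, and control library 3 was at -0.21, so the groups overlapped. Levels between genes can be compared per kilobase of exon. On this scale the median in the control libraries was 83.7 CPM per kb for the shared genes, 23.8 for homeostatic genes, 19.3 for activation genes and 2.88 for border genes, against 195 for 10 endothelial markers. C1qa, at 186 CPM per kb, was the highest member on this scale and close to Pecam1, at 180. The tight junction gene Cldn5 was at 2164.

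Further gene lists extended the role groups, and over all tested genes 6.83% were called lower and 7.56% higher. Of 20 further microglia genes, 7 were lower, 1 was higher and the median was -0.22. Entpd1, an ectoenzyme that breaks down ATP and is also a gene of endothelial cells, fell by 0.69 ± 0.065 on the log2 scale (from 179.4 ± 14.5 to 111.0 ± 5.25 CPM, adjusted p = 0.000406). Itgb5, an integrin gene, fell by 0.28 ± 0.040 (adjusted p = 0.00313). The 1 higher gene was Cd33, a sialic acid receptor, from 20.1 ± 0.736 to 29.5 ± 2.93 CPM (0.56 ± 0.082, adjusted p = 0.00378). Of 10 myeloid transcription factors 2 were lower, among them Maf (-0.44 ± 0.076, adjusted p = 0.00733), none was higher and the median was -0.24. Cebpa (-0.36, adjusted p = 0.0774) and Sall3 (-0.39, adjusted p = 0.129) were not called. Irf8, named after its values were seen, had an estimate of 0.81 (adjusted p = 0.222). It was called higher by DESeq2 (adjusted p = 0.0176) and without control library 3 (0.51, adjusted p = 0.0118). Of 11 further border macrophage genes 1 was lower and 1 higher (9.09% each, near the shares over all genes), with a median of -0.15. They were the adaptor gene Dab2 (-0.39 ± 0.055, adjusted p = 0.00308) and the ectoenzyme gene Cd38 (0.33 ± 0.063, adjusted p = 0.0119). Cd209f (-0.54, adjusted p = 0.105) and Folr2 (-0.53, adjusted p = 0.134) were not called, though both lay lower in all mutant than in all control libraries. In this way 4 of the 11 lay lower and 1 higher, and 8 had estimates below 0 and 3 above. Over all tested genes 17.3% lay lower and 16.8% higher in this way.

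Of 18 further genes of activation and phagocytosis, 8 rose and 2 fell, and the median log2 fold change was 0.25. The higher ones included the protease gene Ctsl, from 238.2 ± 13.5 to 366.9 ± 0.884 CPM (0.62 ± 0.044, adjusted p = 0.000111). The chemokine gene Ccl3 rose from 22.9 ± 1.59 to 38.0 ± 1.39 CPM (0.73 ± 0.067, adjusted p = 0.000384). The cytokine gene Tnf rose from 6.45 ± 0.351 to 12.4 ± 1.17 CPM (0.94 ± 0.103, adjusted p = 0.000867), and the integrin gene Itgax from 3.37 ± 0.280 to 6.46 ± 0.741 CPM (0.94 ± 0.131, adjusted p = 0.00289). The other higher genes were Il1b, Ccl4, Cd52 and Vim, and the lower ones were the phagocytic receptor gene Mertk and the protease gene Ctsd. Vim had 942.0 ± 91.5 CPM in the control and 1377 ± 90.8 CPM in the mutant libraries. Which cells the higher genes rose in cannot be told from whole-library RNA. The adjusted p of Ctsd was 0.0108, and 0.0576 without control library 1 and 0.0535 without mutant library 2, so that 1 gene of this list was lower in either case. Il1b (adjusted p = 0.0146) was not called without control library 2 or 3 (0.055 and 0.0561). Ccl4 (adjusted p = 0.0318) was called without mutant library 3 but with no other library left out (0.053 to 0.0953). Beside this list, markers of granulocytes and monocytes summed to 65.1 to 84.7 CPM in the control and 75.1 to 100.2 CPM in the mutant libraries. Of these 12 markers 1, Ngp, was called higher (adjusted p = 0.0275, 0.00167 to 0.103 with 1 library left out). That is 8.33% of the list, near the 7.56% of all tested genes that were called higher. Lymphocyte markers summed to 18.4 to 20.9 and 20.9 to 25.0 CPM, with 0 of 11 called. Their median log2 fold change was 0.59, and 9 of 11 estimates were above 0. In all mutant against all control libraries 6 of 11 lay higher and 1 lower, against 16.8% and 17.3% of all tested genes. Among the 6 were Cd3e (1.49 ± 0.417, adjusted p = 0.0553) and Cd8a (2.15 ± 0.634, adjusted p = 0.0651), both chosen after their values were seen. Cd3e and Cd8a were near the floor, at about 10.4 and 5.75 read pairs per library. In both lists the 1 gene at 0 in any library was Nkg7, in control library 2 and mutant libraries 2 and 3. The part of such cells in the higher genes was not tested.

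**Figure D4:**
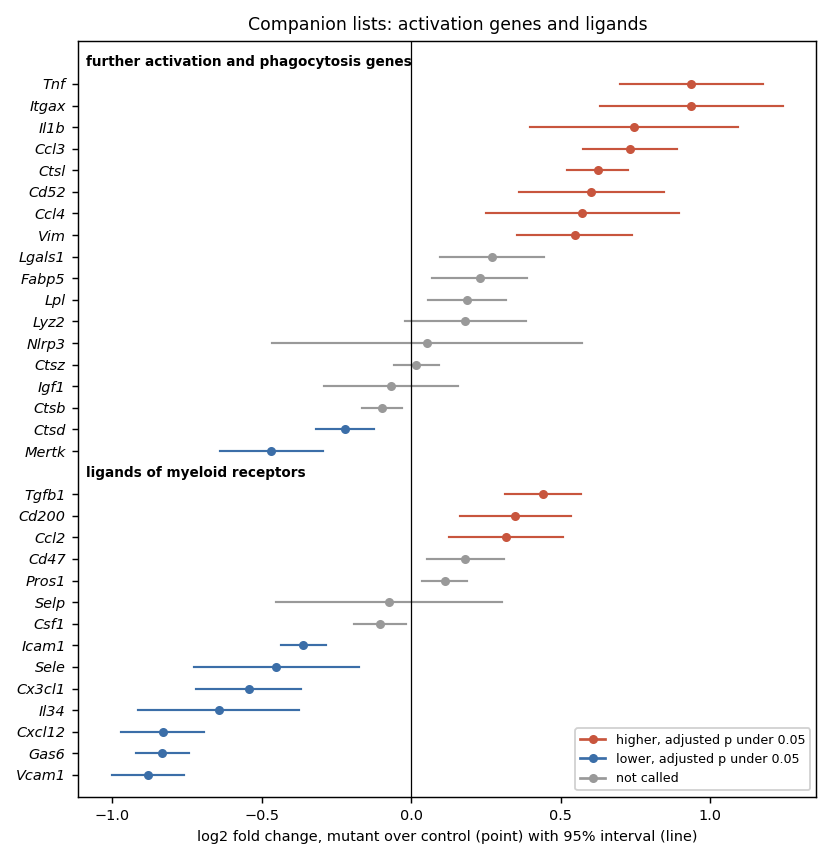
Log2 fold change, mutant over control, with 95% intervals for 18 further activation and phagocytosis genes and for 14 ligands of receptors on myeloid cells. Called genes are colored (red higher, blue lower). Tnf and Itgax lie at 0.94 on the higher side, and Vcam1, Gas6 and Cxcl12 lie between -0.88 and -0.83.

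Of 14 ligands for receptors of myeloid cells 7 were lower and 3 higher, and the median log2 fold change was -0.23. Gas6, the ligand of Axl and Mertk, fell from 212.0 ± 1.59 to 119.0 ± 4.62 CPM (-0.83 ± 0.038, adjusted p = 1.86e-05). The adhesion genes Vcam1 and Icam1 fell by 0.88 ± 0.052 (adjusted p = 5.25e-05) and by 0.36 ± 0.032 (adjusted p = 0.000315), and the chemokine gene Cxcl12 fell by 0.83 ± 0.059 (adjusted p = 0.000115). The ligands of Csf1r and Cx3cr1 are given as well, chosen after their values were seen. Il34 fell from 24.8 ± 3.46 to 15.8 ± 1.35 CPM (-0.64 ± 0.115, adjusted p = 0.00895). Csf1, the other ligand of Csf1r, was not called, at 89.5 ± 1.94 and 83.3 ± 1.91 CPM (adjusted p = 0.12). Cx3cl1, which encodes fractalkine, fell from 47.4 ± 2.74 to 32.5 ± 2.67 CPM (-0.54 ± 0.075, adjusted p = 0.00273). The higher ligands were Tgfb1, Cd200 and Ccl2, and 1 of them was called when control library 1 or 2 or mutant library 2 was left out. The adjusted p of Cd200 was 0.0262 and that of Ccl2 was 0.0407. Cd200 was called without control library 3 or mutant library 1, and Ccl2 without mutant library 3. Of the genes named from the further lists, Gas6, Vcam1, Icam1, Il34, Ctsl, Dab2, Folr2, Maf, Cebpa, Cd52 and Il1b overlap genes on the opposite strand. Ctsl and Ctsd each overlap a gene on their own strand.

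Markers of several other cell types were also lower where the homeostatic and shared genes were. Erythroid markers were lower in 5 of 7 cases, with sums of 6973 to 7179 CPM in the control and 4666 to 4962 CPM in the mutant libraries. Astrocyte markers were lower in 2 of 8 cases (221.3 to 274.4 and 155.5 to 200.4 CPM) and fibroblast markers in 2 of 7. All 8 astrocyte and all 7 fibroblast estimates were below 0, with medians of -0.34 and -0.43. Of the astrocyte markers 5, and of the fibroblast markers 4, lay lower in all mutant than in all control libraries. Of 10 endothelial markers 4 were higher and 2 lower, and Pecam1, which encodes the antigen used for the enrichment, rose by 0.41 ± 0.039 on the log2 scale (adjusted p = 0.000428). Of 7 pericyte markers 3 were higher and 1 lower, and of 8 oligodendrocyte lineage markers 3 were higher and 1 lower. Cspg4 stands in both of these lists and is 1 of the higher genes in each. Of 8 neuronal markers 1 was lower, while 6 had estimates above 0 and the median was 0.33. In this list 4 lay higher and 2 lower in all mutant than in all control libraries. Over all tested genes 6.83% were called lower and 7.56% higher, while 17.3% lay lower and 16.8% higher in this way. The part of the cell mix in the lower microglial genes was not tested.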

How the data were processed

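RNA-seq of 6 libraries was analysed from the estimated counts per gene that the authors deposited and the valid read counts of the authors' deposited quality table (50226902 to 53986268 per library). Per the submitters' processing notes, StringTie 1.3.4 and HISAT2 were used after cutadapt 1.10 and FastQC 0.10.1, edgeR is listed too, and the build named is GRCm39. The counting options are not known here. All 55450 gene IDs matched GENCODE M21 (GRCm38), from which symbols and coordinates were taken, so coordinates are those of GRCm38. Low counts step by about 4, so 1 read pair counts about 4 times; the test had been planned for plain counts and was run on the rounded estimated counts.

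Genes were filtered (filterByExpr), scaled (TMM) and tested with edgeR 4.0.16 (quasi-likelihood, robust, group as the only term, two-sided) in R 4.3.3, with Benjamini-Hochberg adjustment over 19549 genes and a threshold of 0.05. SE values are of the log2 fold change, and intervals are 95%. CPM use the TMM-scaled totals. The fit was tested on simulated data. Alternatives were RLE factors, library size only, no filter, counts divided by 4, a replicate block, DESeq2 1.42.0, limma 3.58.1 (voom) and leaving out each library.

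Members of a role group were given per library when the group had at most 6 tested members or when they were among the 6 with the smallest adjusted p, the rest by range; Olfml3 was added after its values were seen. Of each further list the 4 genes with the smallest adjusted p were named, except for some that are not reported here. The members and lists were chosen with earlier results of these data known. A separate time label reads P0, against an age label of P7.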

Additional observations from a re-analysis of the deposited data

How the results depend on the processing

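Of the 16 called members, 11 kept their call under all 13 alternatives: P2ry13, Tmem119, Csf1r, Fcrls, Gpr34, C1qa, C1qb, C1qc, Laptm5, Spp1 and Lgals3. No called member changed direction. Of those not called, the log2 fold changes of Pf4 (-0.10 to 0.23), F13a1 (-0.12 to 0.13), Cst7 (-0.03 to 0.11) and Ms4a7 (-0.46 to 0.01) crossed 0 with 1 library left out. With 1 library left out, the number of all genes called lower was 807 to 1125 (1335 with all libraries; 807 without control 1, 861 without control 2, 865 without mutant 2), and that of the 35 members was 9 (without control 1) to 13. Shared genes called lower numbered 4 (without control 1) to 7, homeostatic genes called higher 0 to 1 (Olfml3, without mutant 2), activation genes called lower 0 to 1 (Gpnmb), ligands called higher 1 to 2, transcription factors called higher 0 to 1 and further activation genes called lower 1 to 2. DESeq2 called 1 transcription factor higher (Irf8). Same-numbered libraries did not deviate together (r = -0.0233, 0.00969 and 0.0233), and not every library correlated best with its own number. With the replicate block 11 members were called lower, 0 activation genes lower and 1 ligand higher. Among the members it ended the calls of Cx3cr1 (adjusted p = 0.0578), Trem2 (0.0685), Ctss (0.123) and Gpnmb (0.0734), and it called Selplg (0.0487). Fewer samples in the fits with 1 library left out limit what they can call; for the other changes the cause was not tested. At the depth of Ms4a7, Cst7 and Clec7a, intervals were wide.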
